A study of Mus musculus with 2 samples.

Results

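The 39 genes described here code for the machinery that copies DNA, from the licensing of origins to the supply of nucleotides, and were taken as every gene of a list of replication genes whose name the array gives to at least 1 non-control probe. All 39 were found, on 51 probes, out of 34788 gene and noncoding names on the array. All 39 had a probe well above background on both arrays, as had 20410 names in all, and 49 of the 51 probes were measured on both. The study holds 2 arrays, 1 for each siRNA. With no replicate array, differences are described without p-values, and their precision is limited by having a single array on each side. One group is mast cells transfected with 200 pmol of an siRNA against GATA1, and the other is the same kind of cells transfected with 200 pmol of a control siRNA. Both were mast cells grown from the bone marrow of C57BL/6 mice, kept in interleukin 3 (10 ng/mL) for 2 weeks, after which stem cell factor (10 ng/mL) was added for another 2 weeks. Samples of 2 animals were pooled before each hybridisation, so the spread between animals cannot be seen.

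Before S phase, the origin recognition complex, Cdc6 and Cdt1 load the MCM2-7 ring onto origins, a step called licensing, and geminin blocks Cdt1 so that each origin fires a single time per cycle. Cdc45 and the GINS complex then turn the ring into the active CMG helicase. Polymerase alpha with primase starts each strand, replication factor C loads the sliding clamp PCNA, polymerases delta and epsilon extend, and Fen1 and ligase 1 join the Okazaki fragments. Many of these genes are transcribed at the boundary of G1 and S phase by E2F factors. Mast cells in culture divide under interleukin 3 and stem cell factor, and GATA1 is a zinc finger transcription factor of the erythroid, megakaryocytic, eosinophil and mast cell lineages.

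The replication genes differed little between the arrays. Their median log2 difference, GATA1 siRNA minus control siRNA, was 0.08, against 0.01 over all 20410 measured genes. By a rule of 1.2-fold (0.26 on the log2 scale), 1 member was higher with GATA1 siRNA (Gins1) and 2 were lower (Cdc45 and Ccne2), whereas 10.2% of all measured genes were higher by that rule and 13.0% were lower. These 3 calls lie near the rule: Gins1 was below it with quantile scaling (0.26, where Ccne1 at 0.27 was past it), Cdc45 with normexp background (-0.23), and Ccne2 with normexp background (-0.19) and loess scaling (-0.18). No member reached 1.5-fold or 2-fold in either direction, where all genes gave 1.83% higher and 2.76% lower for 1.5-fold, and 0.294% higher and 0.608% lower for 2-fold. The SD of the difference was 0.15 over the 39 members and 0.29 over all measured genes. All genes include many dim ones: among the 16565 genes with a signal of at least 50 on both arrays, 8.37% were higher and 8.13% lower by the 1.2-fold rule. Of the 38 members that met this minimum, 2 were higher (Gins1 and Gmnn) and 1 was lower (Cdc45). Gmnn was counted there by its RefSeq probe alone. Most of the small differences pointed the same way, since 29 of the 39 members (74.4%) stood above 0, against 52.7% of all measured genes. With scalings that depend on brightness the count fell to 25 (quantile) and 26 (loess). The share above 0 was not computed for bright genes alone. In a bulk sample, a different share of dividing cells and a different amount of RNA per cell cannot be told apart.

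Levels are given as array units, the processed signal divided by the array's 75th percentile (340.0 scanner units for GATA1 siRNA and 303.2 for control siRNA). The error beside a difference is the scanner software's own error for the signals, carried to the log2 scale. It covers the array and not the cells or animals, and over the members its median was 0.20 (range 0.14 to 0.37). The difference was larger than its own error for 10 of the 39 members and larger than 2 errors for 0. For bright members the error is nearly constant, at 0.20 with 1 probe (such as Mcm6) and 0.14 with 2 (such as Mcm3). Setting a difference against it is therefore close to a rule of size and is not a test. Spots printed repeatedly within an array varied less than that error: the median SD of the difference was 0.04 for the 103 such probes with a control siRNA signal of 1000 or more, 0.07 for the 89 with 100 to 1000, and 0.20 for the 42 below 100. Of the members, 22 had a control siRNA signal of 1000 or more and 3 had one below 100. Levels of different genes rest on different probes and are not set against each other.

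The label of the knockdown array was checked first. Gata1 had 11.6 array units with GATA1 siRNA and 54.1 with control siRNA, a log2 difference of -2.23 with an error of 0.20, which is 4.68-fold lower. All 10 mast cell markers listed for this purpose (Kit, Fcer1a, Ms4a2, Cpa3, Hdc, Mitf, Tpsb2, Cma1, Mcpt4 and Il1rl1) were measured on both arrays. No spot of the arrays was saturated.

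**Figure D1:**
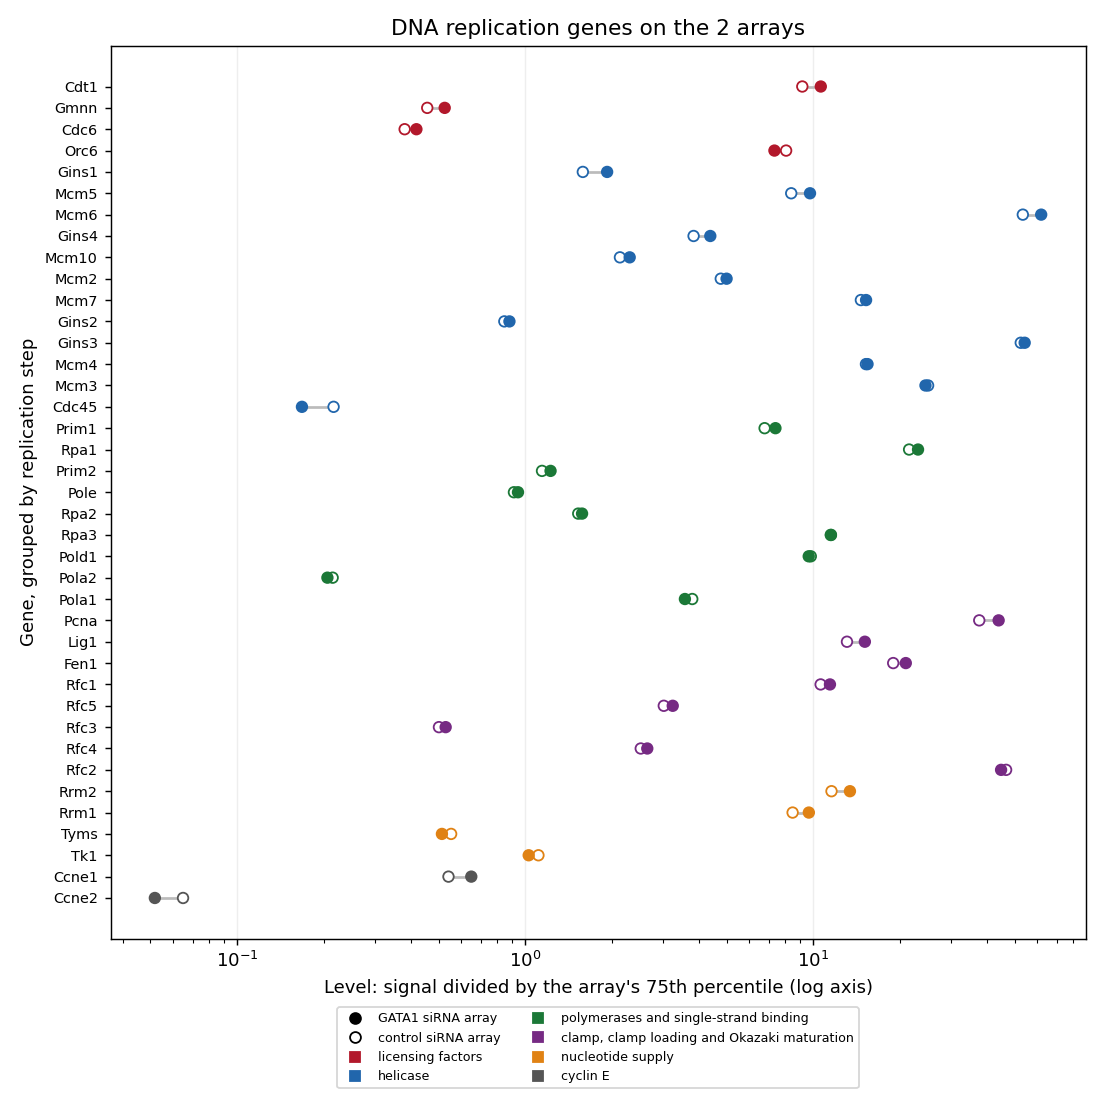
Level of each replication gene on the GATA1 siRNA array (filled points) and on the control siRNA array (open points), as signal divided by the array's 75th percentile on a log axis, grouped and coloured by replication step. The points of a gene lie close together, and the widest gap is that of Cdc45, with 0.168 (GATA1 siRNA) and 0.216 (control siRNA).

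The promoters of Mcm5, Mcm6 and Cdc45 and the probes behind the most extreme values are shown with their letters. The Mcm5 and Mcm6 promoters are shown as the E2F-type promoters whose genes had the highest differences among members with such a match before the start. That of Cdc45 is shown because Cdc45 had the lowest difference of all members. The sequences are those of RefSeq (GRCm38.p6) and run over the 250 bases before the annotated start, in the direction of the gene. Capitals mark the motifs searched on both strands: E2F (TTTCCCGC, TTTCGCGC, TTTGCCGC or TTTGGCGC), the NF-Y box (CCAAT), the cell cycle homology region of mitotic genes (TTTGAA) and a GATA motif (AGATAA or TGATAA).
Mcm5 promoter, chr8:75109259-75109508, plus strand: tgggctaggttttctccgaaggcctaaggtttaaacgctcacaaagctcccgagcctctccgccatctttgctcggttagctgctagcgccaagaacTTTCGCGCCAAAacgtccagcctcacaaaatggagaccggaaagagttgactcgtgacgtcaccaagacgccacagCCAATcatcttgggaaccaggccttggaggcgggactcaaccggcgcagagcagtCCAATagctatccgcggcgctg
Mcm6 promoter, chr1:128359706-128359955, minus strand: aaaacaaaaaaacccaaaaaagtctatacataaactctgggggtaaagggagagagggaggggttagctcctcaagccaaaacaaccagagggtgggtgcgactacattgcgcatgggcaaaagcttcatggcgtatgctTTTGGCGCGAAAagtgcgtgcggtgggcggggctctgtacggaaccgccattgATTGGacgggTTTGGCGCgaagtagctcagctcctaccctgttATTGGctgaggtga
Cdc45 promoter, chr16:18811973-18812222, minus strand: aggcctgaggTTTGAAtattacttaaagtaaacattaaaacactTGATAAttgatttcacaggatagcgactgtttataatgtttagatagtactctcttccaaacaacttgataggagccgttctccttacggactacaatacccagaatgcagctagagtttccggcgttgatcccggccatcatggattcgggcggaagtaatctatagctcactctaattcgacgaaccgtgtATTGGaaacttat

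The first capital run of Mcm5, which begins 153 bases before the start, holds 2 overlapping E2F matches, 1 on each strand, and so does that of Mcm6, which begins 110 bases before it. Mcm6 has a further E2F match 47 bases before the start. In the printed stretch Cdc45 has no E2F match, and it has the TTTGAA letters at 240 bases, the GATA letters at 206 bases and an inverted CCAAT box at 13 bases before the start. The only Cdc45 probe lies at position 663 of its transcript, and the upstream of the 2 Ccne1 probes lies at position 741. They are shown because the lowest difference of any member rests on the first, and the highest difference of any measured member probe on the second.
Cdc45 probe, chr16:18807449-18807508 (mm9), minus strand: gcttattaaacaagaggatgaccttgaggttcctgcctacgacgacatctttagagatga
Ccne1 probe, chr7:38885574-38885633 (mm9), minus strand: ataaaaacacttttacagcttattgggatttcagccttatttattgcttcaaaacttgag

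Promoters in the RefSeq table were matched for 30 of the 39 members, and Gins4, Pole, Gins1, Mcm4, Gmnn, Prim2, Rfc2, Ccne2 and Gins2 have no entry. In the window from 250 bases before to 50 after the start, the E2F letters occurred for 11 of the 30 members (36.7%), against 2.6% of the 27025 genes in the table. These 11 were Mcm3, Mcm5, Mcm6, Mcm7, Cdc6, Cdt1, Gins3, Rfc3, Pola1, Pold1 and Lig1. The NF-Y box occurred for 19 of 30 (63.3%, against 41.1% of all genes), TTTGAA for 4 of 30 (13.3%, against 20.2%) and the GATA letters for 2 of 30 (6.67%, against 21.0%), namely Cdc45 and Fen1. The E2F letters were about as frequent in the other replication and G1/S genes, with 14 of 41 further replication genes (34.1%) and 7 of 22 G1/S control genes (31.8%). Among 35 genes of a mitosis list with an entry, the E2F letters occurred for 1, the NF-Y box for 25 (71.4%) and TTTGAA for 24 (68.6%). The median GC content was 60.7% over the members' promoters and 52.7% over all promoters, and its part in these shares was not tested. The median difference was 0.08 over the 11 members with E2F letters and 0.10 over the 19 without, with ranges of -0.08 to 0.22 and -0.36 to 0.26. A match describes the letters of this window and is not evidence of binding.

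Licensing genes stood slightly higher with GATA1 siRNA except Orc6, and their median over 4 genes was 0.17 with none past 1.2-fold. With normexp background that median was 0.08. Cdt1, which loads the MCM ring together with Cdc6, had 10.6 array units with GATA1 siRNA and 9.16 with control siRNA, a difference of 0.21 with an error of 0.20. Gmnn codes for geminin, the inhibitor of Cdt1, and its probe for the RefSeq transcript had 2.47 array units with GATA1 siRNA and 2.02 with control siRNA. That probe alone gave 0.29, which is past 1.2-fold. A second probe carrying the name Gmnn was designed on a cDNA clone, AK131677, and lies on the plus strand of chromosome 13 (mm9, 24854006 to 24854065), whereas the first lies on the minus strand (24843715 to 24843774). The 2 probes are therefore directed to transcripts of opposite strands. The second was dim, with 0.112 array units for GATA1 siRNA and 0.103 for control siRNA (0.11, error 0.27), and the mean of both gives the 0.20 counted for Gmnn here. Cdc6, the ATPase that recruits Cdt1 and the ring, differed by 0.11 and 0.16 at its 2 probes, the mean level being 0.419 array units with GATA1 siRNA and 0.381 with control siRNA. Orc6, a subunit of the origin recognition complex, had 7.33 array units with GATA1 siRNA and 8.05 with control siRNA, a difference of -0.13 with an error of 0.20.

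The helicase genes included both the highest and the lowest member. Over these 12 genes the median was 0.06, with 10 above 0 and 2 below. Gins1, a subunit of the GINS complex, had 1.92 array units with GATA1 siRNA and 1.58 with control siRNA, a difference of 0.28 (error 0.20, 1.21-fold), and 9.28% of all measured genes had a higher value. Cdc45, the factor that joins GINS and the MCM ring in the active helicase, had 0.168 array units with GATA1 siRNA and 0.216 with control siRNA. Its difference was -0.36 (error 0.23, 1.29-fold lower), and 7.8% of all measured genes were lower still. Its signals were dim, at 57.1 scanner units for GATA1 siRNA and 65.5 for control siRNA, and repeated spots below 100 varied by an SD of 0.20. Of the genes whose products join Cdc45 in the active helicase, all 4 GINS genes and 5 of the 6 MCM2-7 genes lay above 0. Mcm3 lay just below it (-0.03). The signs of Gins3, Mcm3, Mcm4 and Mcm7 depend on the scaling.

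The other GINS genes stood between 0.05 and 0.19. Gins4 had 4.39 array units with GATA1 siRNA and 3.84 with control siRNA (0.19). Gins2 had 0.881 with GATA1 siRNA and 0.846 with control siRNA (0.06), and Gins3 had 54.2 with GATA1 siRNA and 52.5 with control siRNA (0.05). Gins3 stood at -0.03 under quantile scaling and at -0.01 under loess scaling. The 6 genes of the MCM2-7 ring, whose products form a single hexamer, lay between -0.03 and 0.22 with a median of 0.06, and 5 of 6 were above 0. Mcm5 had 9.74 array units with GATA1 siRNA and 8.38 with control siRNA (0.22). Mcm6 had 61.8 array units with GATA1 siRNA and 53.4 with control siRNA (0.21). The other 4 ring genes lay within 0.07 of 0 in either direction.

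Mcm2 had 5.0 array units with GATA1 siRNA and 4.77 with control siRNA (0.07), and Mcm7 had 15.2 with GATA1 siRNA and 14.6 with control siRNA (0.06). Mcm4 had 15.4 array units with GATA1 siRNA and 15.2 with control siRNA (0.02). Mcm3 was the only ring gene below 0, at -0.03, and the signs of Mcm3, Mcm4 and Mcm7 depend on how the arrays are scaled. The 2 Mcm3 probes overlap by 43 bases and gave 0.01 and -0.07, a gap of 0.08 between probes of nearly the same stretch. Mcm10, which helps activate the helicase and recruits polymerase alpha, had 2.3 array units with GATA1 siRNA and 2.13 with control siRNA (0.11).

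**Figure D2:**
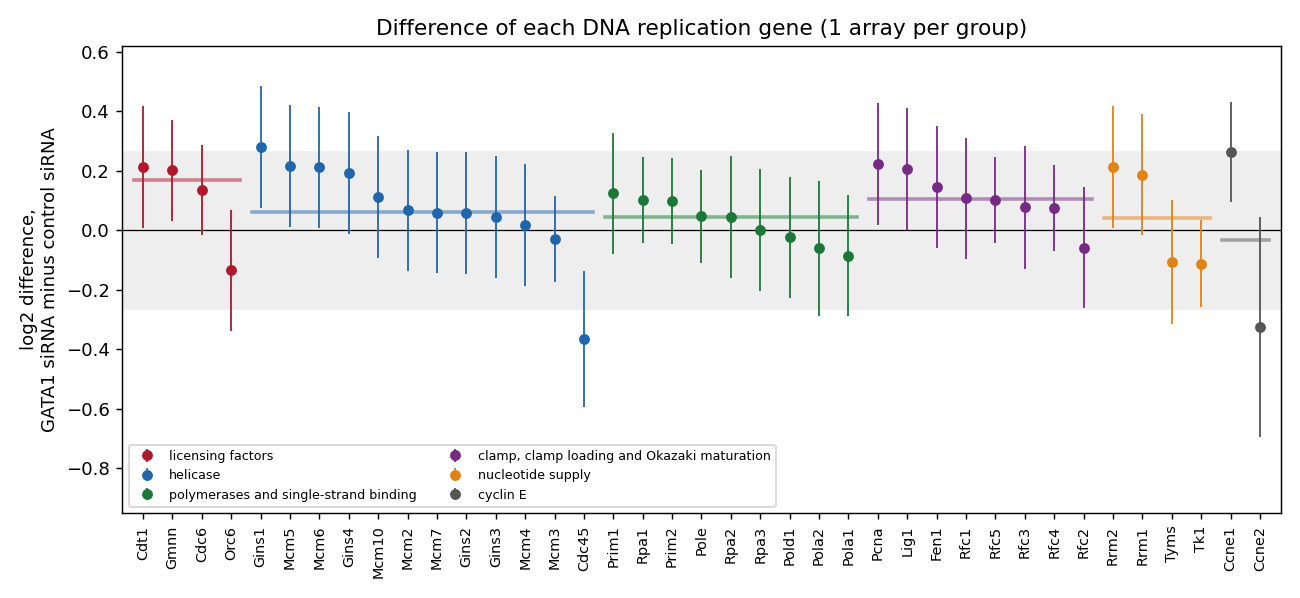
Log2 difference, GATA1 siRNA minus control siRNA, of each replication gene, with bars for the scanner software's error; coloured lines are the medians of each step and the grey band is the range within 1.2-fold. Only Gins1 (0.28), Cdc45 (-0.36) and Ccne2 (-0.33) lie outside the band, and Ccne1 (0.26) lies at its edge.

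Polymerase, primase and single-strand binding genes stood closest together in the values reported here. Their median over 9 genes was 0.04, the range was -0.08 to 0.12, and none was past 1.2-fold. That closeness depends on how probes are combined. Prim2 stood at 0.26 with the brightest probe, and Pole at -0.43 with dim probes counted. Prim1, the catalytic primase subunit, had 7.39 array units with GATA1 siRNA and 6.78 with control siRNA (0.12). The catalytic subunit of polymerase alpha, Pola1, had 3.58 array units with GATA1 siRNA and 3.8 with control siRNA (-0.08), and its accessory subunit Pola2 had 0.206 with GATA1 siRNA and 0.215 with control siRNA (-0.06). Of the 4 genes of the primase and polymerase alpha complex, 2 lay above 0 and 2 below it, but the sign of Pola2 depends on the scaling. Prim2, the large primase subunit, had a mean of 0.10 from 2 probes of opposite sign. Its RefSeq probe had 2.56 array units with GATA1 siRNA and 2.14 with control siRNA (0.26), and a probe on the cDNA AK166687 had 0.586 with GATA1 siRNA and 0.612 with control siRNA (-0.06).

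Pole, the catalytic subunit of polymerase epsilon, also had probes of opposite sign. The one at position 7031 of its transcript gave 0.13, with 5.25 array units for GATA1 siRNA and 4.78 for control siRNA. The one on the cDNA AK165879 gave -0.04, with 0.17 array units for GATA1 siRNA and 0.175 for control siRNA, and another probe was below the background limit on both arrays. Pold1, the catalytic subunit of polymerase delta, had 9.64 array units with GATA1 siRNA and 9.8 with control siRNA (-0.02). The subunits of replication protein A, which coats single strands, all lay between 0.0007 and 0.10. Rpa1 had 23.1 array units with GATA1 siRNA and 21.5 with control siRNA (0.10), from probes of 0.13 and 0.07. Rpa2 had 1.57 array units with GATA1 siRNA and 1.53 with control siRNA (0.04), and Rpa3 had 11.5 on both arrays (0.0007). The signs of Pola2, Pold1 and Rpa3 change with the scaling.

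Clamp, clamp loading and Okazaki maturation genes had a median of 0.11 over 8 genes, with 7 above 0 and none past 1.2-fold. Pcna, the sliding clamp, had 44.0 array units with GATA1 siRNA and 37.7 with control siRNA, a difference of 0.22 with an error of 0.20. Lig1, the ligase that seals Okazaki fragments, had 15.1 array units with GATA1 siRNA and 13.1 with control siRNA (0.21). Fen1, the flap endonuclease that trims them, had 20.9 array units with GATA1 siRNA and 18.9 with control siRNA (0.15). Pcna and Lig1 were just above their error and Fen1 was below it.

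The 5 genes of replication factor C, the clamp loader, lay between -0.06 and 0.11, and their median was 0.08. Rfc1, its large subunit, had 11.4 array units with GATA1 siRNA and 10.6 with control siRNA (0.11). Rfc5 differed by 0.06 and 0.15 at its 2 probes, and Rfc4 by 0.11 and 0.04. Rfc3 had 0.529 array units with GATA1 siRNA and 0.502 with control siRNA (0.08). Rfc2 was the subunit below 0, with 44.9 array units for GATA1 siRNA and 46.7 for control siRNA (-0.06), and it stood at 0.003 with the authors' scaling. Across all members with more than 1 measured probe, 10 in number, the median gap between a gene's probes was 0.11 and the largest was 0.37, and the signs differed for 3 of them (Mcm3, Pole and Prim2).

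Nucleotide supply genes split by enzyme, with a median of 0.04 over 4 genes and none past 1.2-fold. Both genes of ribonucleotide reductase, which makes deoxyribonucleotides, were above 0. Rrm2, the small and cell cycle regulated subunit, had 13.4 array units with GATA1 siRNA and 11.6 with control siRNA (0.21), and Rrm1, the large subunit, had 9.65 with GATA1 siRNA and 8.47 with control siRNA (0.19). The 2 genes of thymidylate supply were below 0. Tyms, thymidylate synthase, had 0.514 array units with GATA1 siRNA and 0.553 with control siRNA (-0.11). Tk1, thymidine kinase, had a mean of 1.03 with GATA1 siRNA and 1.11 with control siRNA (-0.11), from probes of -0.05 and -0.18, while another probe was below the background limit on both arrays. The signs of all 4 held under the 5 scalings tried, but with dim probes counted Tk1 stood at 0.17 and the median of the step at 0.18. In the values reported here, each difference was about the size of its error or smaller.

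Cyclin E, which with Cdk2 drives entry into S phase, is coded by a pair of genes that lay apart. Ccne1 had a mean of 0.65 array units with GATA1 siRNA and 0.541 with control siRNA, a difference of 0.26 that was just short of 1.2-fold. It comes mostly from the dim internal probe, with 0.138 array units for GATA1 siRNA and 0.101 for control siRNA (0.45, error 0.27), whereas the brighter probe gave 0.08 with an error of 0.20. Ccne2 had 0.0518 array units with GATA1 siRNA and 0.0649 with control siRNA, a difference of -0.33. With signals of 17.6 scanner units for GATA1 siRNA and 19.7 for control siRNA it was the dimmest member, and its error of 0.37 exceeded its difference.

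Several members lay close to the 1.2-fold rule. Gins1 at 0.28 was counted and Ccne1 at 0.26 was not, and next below them came Pcna (0.22), Mcm5 (0.22), Cdt1 (0.21), Rrm2 (0.21), Mcm6 (0.21), Lig1 (0.21) and Gmnn (0.20). The authors' own scaling, which divides each array by its median, adds 0.06 to every difference. Under it 8 members were past 1.2-fold higher (Mcm5, Mcm6, Cdt1, Gins1, Pcna, Lig1, Rrm2 and Ccne1) and 2 lower, while 14.98% of all genes were higher and 9.42% lower, and the median of all genes was 0.07. The members' median less that of all genes was 0.07 in both cases. Under all 12 other choices of processing that were tried, that gap stayed between 0.05 and 0.19, and between 25 and 33 of the 39 members stood above 0.

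**Figure D3:**
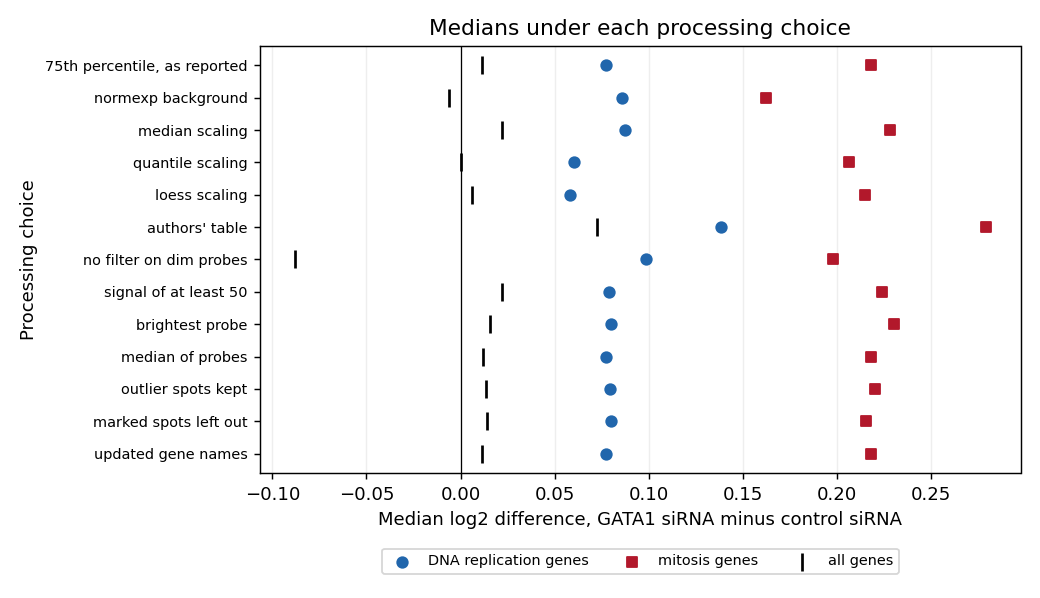
Median log2 difference, GATA1 siRNA minus control siRNA, of the 39 replication genes (circles), of the mitosis genes (squares) and of all genes (bars) under each processing choice. The replication median lies between 0.06 and 0.14 and the mitosis median between 0.16 and 0.28.

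Other genes of the pathway were read from a list of 51. Of these, 49 replication and S phase genes were measured, with a median of 0.06. By the 1.2-fold rule 4 of them were higher (8.16%) and 1 was lower, against 10.2% and 13.0% of all measured genes. Orc1, the largest subunit of the origin recognition complex, was the only one past 1.5-fold, at 0.92 (1.89-fold higher), on a single dim probe with signals of 40.0 scanner units for GATA1 siRNA and 18.8 for control siRNA. Next came Rnaseh2c, a subunit of the nuclease that removes ribonucleotides from DNA, at 0.39, the mismatch repair gene Msh6 at 0.37 and the polymerase delta subunit Pold2 at 0.31. Among the lowest were Rrm2b, the p53-inducible ribonucleotide reductase subunit, at -0.41 and Chaf1b, a subunit of the histone chaperone CAF-1, at -0.21. Rrm2b was dim too, with signals of 46.9 scanner units for GATA1 siRNA and 55.5 for control siRNA. The remaining origin recognition subunits Orc2, Orc3, Orc4 and Orc5 stood at 0.02, -0.01, 0.05 and -0.14, none of them past 1.2-fold.

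Regulators of entry into S phase gave a median of 0.08 over 31 genes. By the 1.2-fold rule 5 of them were higher (16.1%) and 2 were lower, against 10.2% and 13.0% of all measured genes. The highest were the E2F family member E2f5 at 0.62, a dim gene with signals of 32.8 (GATA1 siRNA) and 19.0 (control siRNA), the kinase Wee1 at 0.50 and cyclin D1 (Ccnd1) at 0.46, followed by Rbl1 at 0.34 and Cdkn2c at 0.28. The lowest were Skp2, a ubiquitin ligase subunit that targets p27, at -0.28, E2f3 at -0.27 and Cdk6 at -0.17. Ccnd1 and Skp2 were dim as well. Ccnd1 had signals of 51.8 (GATA1 siRNA) and 33.5 (control siRNA), and Skp2 had 85.4 (GATA1 siRNA) and 92.5 (control siRNA). E2f1 stood at 0.05 and Cdk2 at 0.01, both chosen for mention after their values were seen.

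The genes of mitosis gave a median of 0.22 over 39 measured genes. By the 1.2-fold rule 13 of them were higher (33.3%) and 1 was lower. The counts were 1 and 2 for the 39 replication genes, and the shares 10.2% and 13.0% for all measured genes. Several of the 13 lay near the rule, such as Plk1 (0.27), Nusap1 (0.28) and Ube2c (0.29), and Cenpe (0.26) fell just short of it. The mitosis count was not recomputed under the other processing choices. Highest of the mitosis genes were Espl1 (separase) at 0.58 and the mitotic kinases Aurkb at 0.53 and Ttk at 0.46. The centriole kinase Plk4 at -0.54, Cdca8 at -0.19 and Tpx2 at -0.17 were lowest, and Cenpf was below the background limit on both arrays. Both lists come from the same 2 arrays, and with 1 array per group the difference between them was not tested. The mitosis median was 0.14 above that of the replication genes, and the gap lay between 0.08 and 0.16 under the processing choices tried.

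**Figure D4:**
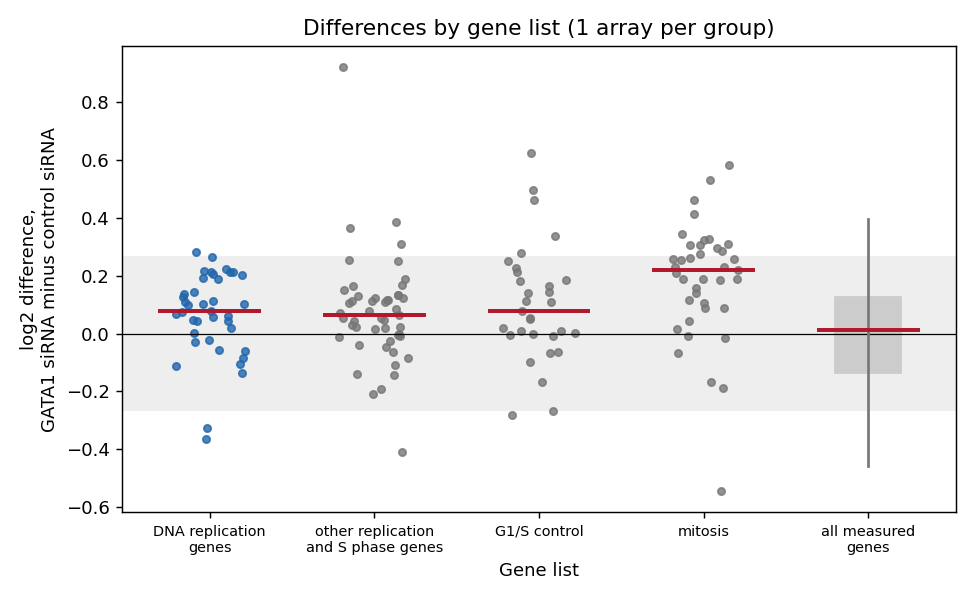
Log2 difference, GATA1 siRNA minus control siRNA, of each measured gene in 4 lists, with medians as red lines; for all measured genes the box spans the middle 50% and the line the 5th to 95th percentile, and the grey band is the range within 1.2-fold. The replication genes lie between -0.36 and 0.28, and the mitosis genes sit higher, with a median of 0.22.

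Markers of other blood cells also differed between the arrays. By the 1.2-fold rule, 10.2% of all measured genes were higher and 13.0% were lower. Of 14 neutrophil and precursor markers 13 were measured, 12 past 1.2-fold higher and 1 lower, with a median of 0.50 and a summed level of 222.9 array units for GATA1 siRNA and 199.9 for control siRNA. Ltf (0.79), Ngp (0.75), Camp (0.67), S100a8 (0.61) and S100a9 (0.60) were highest, Elane (0.33), Cebpe (0.28) and Ctsg (-0.37) were lowest, and Retnlg was below the background limit on both arrays. Of 12 macrophage and monocyte names 9 were measured, 5 higher and 1 lower, with a median of 0.28 and a summed level of 22.1 for GATA1 siRNA and 13.1 for control siRNA. Ms4a7 (1.09), Cd68 (1.07) and Emr1 (0.63) were highest, Csf1r (0.02), C1qb (-0.10) and Fcgr1 (-0.39) were lowest, and C1qa was below the background limit on both arrays. Of 8 progenitor markers 7 were measured, 3 higher and 0 lower, with a median of 0.21 and a summed level of 65.3 for GATA1 siRNA and 54.0 for control siRNA. Sox4 (0.72), Hoxa7 (0.54) and Cd34 (0.46) were highest, Meis1 (0.08), Hoxa9 (-0.06) and Flt3 (-0.18) were lowest, and Mecom was below the background limit. Among the markers named so far, C1qb, Fcgr1, Sox4, Hoxa7, Hoxa9 and Flt3 had control siRNA signals below 100 scanner units. Repeated spots that dim varied by an SD of 0.20.

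Of 7 erythroid markers 4 were measured, with a summed level of 13.7 for GATA1 siRNA and 9.52 for control siRNA: Hba-a1 (0.69), Hbb-b1 (0.59), Tfrc (0.22) and Epor (-1.58), while Klf1 and Alas2 were below the background limit on both arrays. Of 5 lymphocyte markers Cd3e (-0.14) and Cd79a (-0.38) were measured, with a summed level of 3.49 for GATA1 siRNA and 3.88 for control siRNA. The 10 mast cell markers had a median of -0.10 and a summed level of 2330 for GATA1 siRNA and 2544 for control siRNA. Of these markers, 3 were past 1.2-fold lower and 0 higher, against 13.0% and 10.2% of all measured genes. Cpa3 (0.04), Kit (0.03) and Ms4a2 (0.01) were highest, and Il1rl1 (-0.32), Tpsb2 (-0.55) and Mcpt4 (-0.88) were lowest. Each summed level is weighted by the brightest probes of its list, such as Ctsg and S100a9 among the neutrophil markers, and is set only against the same sum on the other array. In the neutrophil sum, Ctsg had 79.9 array units with GATA1 siRNA and 103.0 with control siRNA. The other 12 measured markers of that list were higher with GATA1 siRNA. The part of other cells in these values was not tested.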

How the data were processed

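Total RNA of cultured mouse mast cells was measured on 2 Agilent 1-colour arrays, 1 for each siRNA (100 ng of RNA labelled with Cy3, per the labels' protocols). The deposited intensity values are in scanner units and were made by the authors with Agilent Feature Extraction 10.7.3.1, per the file headers, with spatial and multiplicative detrending and surrogate values for dim spots, and without scaling between arrays. The flags of spot type, background and saturation that accompany them were deposited in the same files. The authors' deposited table of normalized intensity equals each array's processed signal divided by its median (23.6 for GATA1 siRNA and 21.9 for control siRNA). The steps behind that table are not given in the sources used here.

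Of 59305 non-control spots, spots with an outlier flag on at least 1 array were left out (133 on the GATA1 siRNA array and 117 on the control siRNA array), and repeated spots were averaged on the log2 scale, which left 55659 probes. Of the spots, 55.7% on the GATA1 siRNA array and 53.3% on the control siRNA array were well above background. Levels were divided by the 75th percentile of each array. A probe counted as measured if neither array had it below the background limit or saturated, and measured probes of a gene were averaged. Genes carry the names of the array annotation, whose coordinates are mm9.

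Groups follow the transfection label. Both arrays lie on the same slide, so the position on the slide and the siRNA cannot be told apart. With 1 array per group a rule of size replaced a test. The members, steps, lists and the 1.2-fold rule were chosen with earlier results of these data known. Members are named with their values where they are past 1.2-fold, are among the highest 2 or lowest 2 of their step or have probes of opposite sign; nearly all others are given too. Of other lists the 3 highest, the 3 lowest and any gene past 1.5-fold are named, except that a few list genes are not reported here. Alternatives were normexp background with an offset of 50 (limma 3.58.1 in R 4.3.3), scaling by loess (span 0.4), by quantiles, by the measured probes' median and by the authors' table, no filter on dim probes or a signal of at least 50, the brightest probe or the median of probes, outlier spots kept, spots left out that have at least 2 neighbours differing 4-fold, updated names, and size rules of 1.5-fold and 2-fold. The calculations were tested on simulated data with changes larger than any member's difference, so recovery of differences as small as the members' was not tested. The calculations used Python 3.11.15, numpy 2.4.6 and pandas 2.3.3.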

Additional observations from a re-analysis of the deposited data

How the results depend on the processing

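Gins1 and Cdc45 kept their sign under the 12 alternatives to the processing, and Ccne2 under the 11 that measured it. The median of the members moved by more than the spread of repeated spots (0.06) only with the authors' table, where it was 0.14, and there the medians of the further replication genes, the G1/S control genes and the mitosis genes were 0.12, 0.14 and 0.28, and that of all genes 0.07. The count of members past 1.2-fold rests on few genes near the threshold. It was 2 higher with the median scaling, the loess scaling, outlier spots kept and marked spots left out (Gins1 and Ccne1). It was also 2 higher with a signal of at least 50 and with the brightest probe (Gins1 and Gmnn), and 8 higher with the authors' table. It was 0 lower with normexp background, 1 lower with the loess scaling and 1 lower with a signal of at least 50, and 0 in either direction with the 1.5-fold and 2-fold rules. With quantile scaling the 1 higher member was Ccne1 (0.27) and not Gins1 (0.26), and the calls lost were Cdc45 (-0.23) and Ccne2 (-0.19) with normexp background and Ccne2 (-0.18) with loess scaling. Of 467 member values recomputed, 462 moved by less than that member's scanner error. Of 72 medians of replication steps, 11 moved by more than 0.06. These include every step with the authors' table, which shifts all genes by the same amount. The others are licensing with normexp background (0.08), nucleotide supply with dim probes counted (0.18), and cyclin E. The cyclin E median of -0.03 became 0.06 with loess scaling and -0.12 with the brightest probe. It was 0.08 with a signal of at least 50, from Ccne1 alone. The 5 member values that moved further concern Pole (-0.43) and Tk1 (0.17) with dim probes counted, Ccne1 (0.08) with a signal of at least 50 and with the brightest probe, and Prim2 (0.26) with the brightest probe. Some choices could not move a member that far, so the count of 462 overstates what was tried. The median of probes equals the mean where a gene has 1 or 2. Median scaling and the authors' table shift all genes by the same small amount, below the lowest error of 0.14. The sign depended on the scaling for 8 members, and 25 were above 0 and 6 below 0 under all 5 scalings. Updated names brought no further probe to the members. No paired analysis was possible because each group is 1 array, and leaving out a replicate was not possible for the same reason. Dim signals limit Ccne2, Cdc45, Pola2 and the second probes of Ccne1, Gmnn, Pole and Cdc6.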
